A study of Arabidopsis thaliana with 6 samples.

Results

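XDH2 (AT4G34900), AT4G12830 and AT5G59250 are 3 nuclear genes of Arabidopsis thaliana that were well read in wild type seedlings and nearly lost from the libraries labelled epl1a epl1b. They are 3 of the 5330 genes in the 2 tables used here, and 3 of the 1806 that the authors listed lower in those libraries. They were chosen by the size of this fall in the same 6 libraries, so their own levels, folds and ranks are given as a description, without a test. XDH2 encodes a xanthine dehydrogenase, an enzyme with a molybdenum cofactor that oxidises hypoxanthine and xanthine to uric acid in the breakdown of purines. AT5G59250 encodes a sugar transporter of the chloroplast envelope, known as pSuT and described in the annotation as D-xylose-proton symporter-like 3, which carries sucrose across the plastid envelope. AT4G12830 is annotated as a member of the alpha/beta-hydrolase superfamily, a fold shared by many esterases and lipases.

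The epl1ab-labelled group holds 3 libraries of a line labelled as the double mutant of EPL1A and EPL1B, and the Col-0 group holds 3 libraries of wild type. EPL1A and EPL1B are plant homologues of Enhancer of Polycomb, a subunit of the NuA4 complex, which acetylates histone H4. Both groups were whole seedlings of the Columbia-0 ecotype, grown for 14 days at 22 °C on medium with 1% sucrose under 16 h light and 8 h dark and sampled 8 h after dawn, and the libraries came from 3 independent experiments. Both groups were stratified for 3 days at 4 °C, with light at 100 µmol per m2 per s during growth. In whole seedlings, fewer cells of a type and less RNA per cell cannot be told apart.

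The targeted genes were examined first. EPL1A had 128, 122 and 124 normalised reads in the epl1ab-labelled libraries, against 360.0, 378 and 364 in the Col-0 libraries. EPL1B had 17029, 16996 and 17128 normalised reads in the epl1ab-labelled libraries, against 743, 762 and 654 in Col-0. Normalised reads are the counts of a gene divided by the scaling factor of each library. EPL1A was lower, whereas EPL1B was higher and so went against the label. The libraries are called epl1ab-labelled, and every direction is one between labels for this reason. A single count per gene does not show which part of it was read, and the labels used here do not say where the alleles interrupt the genes. Reads in listed genes came to between 7355421 and 8625707 per epl1ab-labelled library and between 9265086 and 10938542 per Col-0 library. Genes outside the tables add nothing to these sums, so they do not give the depth of a library.

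Markers of several organs also differed between the groups, and these values bear on every level below. Of 17 seed and embryo markers, 16 were listed, all higher. Their summed level was 1182, 205368 and 298326 normalised reads in epl1ab-labelled replicates 1, 2 and 3, against 54.9 to 416 in Col-0, where the embryo regulator NFYB9 (LEC1) was at 0 in every library. Epl1ab-labelled replicate 1 thus stood apart from replicates 2 and 3 in seed transcripts. Of 8 green leaf markers, RBCS-2B and LHB1B1 were listed, both lower, with a summed level of 35461 to 39673 normalised reads in the epl1ab-labelled libraries, against 200439 to 225878 in Col-0. Of 9 root markers, 3 were listed higher and 1 lower, with sums of 505 to 564 normalised reads in the epl1ab-labelled libraries and 234 to 333 in Col-0. Of 5 flower markers, 4 were listed, all higher, with sums of 487 to 743 normalised reads in the epl1ab-labelled libraries and 73.2 to 90.2 in Col-0. For comparison, 6.28% of all annotated protein-coding genes were listed lower and 12.3% higher. The other markers were not listed and add nothing to these sums, so the leaf sums rest on RBCS-2B and LHB1B1 alone. The part of these organ differences in the falls of the 3 genes was not tested.

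The sequence just before each annotated start site is shown because XDH2 and AT5G59250 each lie head to head with a neighbour at a short distance. The stretches were read from the RefSeq TAIR10.1 genome, and each runs from the start site back to the neighbouring gene, or over 250 bases for AT4G12830, whose nearest upstream gene lies 1248 bases away. That of XDH2 covers chr4:16631371-16631439 on the minus strand, that of AT4G12830 covers chr4:7530891-7531140 on the plus strand, and that of AT5G59250 covers chr5:23903768-23903871 on the plus strand. Capitals mark a GATAAG match (the I-box of light-regulated genes) before AT4G12830 and an AAACCCTA match (the telo-box) before AT5G59250.
XDH2: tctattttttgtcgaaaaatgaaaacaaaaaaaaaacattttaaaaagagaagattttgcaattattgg
AT4G12830: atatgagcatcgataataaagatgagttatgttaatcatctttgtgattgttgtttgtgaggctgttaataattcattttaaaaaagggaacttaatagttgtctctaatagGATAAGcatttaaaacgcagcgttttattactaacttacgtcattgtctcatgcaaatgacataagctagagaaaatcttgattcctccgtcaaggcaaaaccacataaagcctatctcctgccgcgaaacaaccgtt
AT5G59250: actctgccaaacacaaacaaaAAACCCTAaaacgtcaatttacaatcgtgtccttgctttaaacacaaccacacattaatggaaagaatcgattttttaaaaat

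The 69 bases of XDH2 held 20.3% G and C, the 250 of AT4G12830 held 34.4% and the 104 of AT5G59250 held 31.7%. Across 6 motifs searched on both strands in the 250 bases before each start, the 3 genes shared none. The GATAAG match of AT4G12830 began 138 bases before the start, and 12.3% of 27443 promoters hold one. The AAACCCTA match of AT5G59250 began 83 bases before the start, with a share of 4.49% of promoters, and a TATAAA match (47.3% of promoters) began 116 bases before it, inside the neighbouring gene and so outside the printed stretch. No match to CACGTG (6.49% of promoters), CCAATC (10.2%) or AAAATATCT (2.36%) was found in any of the 3 windows, and the XDH2 window held none of the 6.

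XDH2 lies on chromosome 4 at 16625517 to 16631370 on the minus strand, with 14 exons and a protein of 1353 residues. It had 24.2, 33.8 and 48.5 normalised reads in epl1ab-labelled replicates 1, 2 and 3, against 2082, 2421 and 1961 in Col-0 replicates 1, 2 and 3. The highest epl1ab-labelled library lay far below the lowest Col-0 library. The means were 35.5 ± 12.2 in epl1ab-labelled and 2155 ± 239 in Col-0 libraries (SD, n = 3 each), which leaves 1.65% of the Col-0 level, a 60.7-fold lower level. The edgeR log2 fold change was -5.92 ± 0.26 (SE), and that of the authors' deposited table was also -5.92. The residue rested on 28, 35 and 58 reads, so the level left had 95% exact binomial intervals of 0.745 to 1.62% in epl1ab-labelled replicate 1, 1.09 to 2.18% in replicate 2 and 1.70 to 2.91% in replicate 3. These intervals, and those below, cover counting error only.

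AT4G12830 lies on the same chromosome at 7531141 to 7533587 on the plus strand, with 13 exons and a protein of 393 residues. It had 77.0, 48.2 and 97.1 normalised reads in the epl1ab-labelled libraries, against 1851, 2053 and 1953 in Col-0. The groups were again widely separated, and the lowest epl1ab-labelled library was replicate 2, not replicate 1. The means were 74.1 ± 24.6 in epl1ab-labelled and 1952 ± 101 in Col-0 libraries (SD, n = 3 each), with 3.80% of the Col-0 level left, a 26.3-fold lower level. The edgeR log2 fold change was -4.71 ± 0.25 (SE), the same as in the authors' deposited table. On 89, 50 and 116 reads, the level left was 3.95% (95% exact binomial interval 3.17 to 4.87) in replicate 1, 2.47% (1.83 to 3.27) in replicate 2 and 4.97% (4.11 to 5.98) in replicate 3. Its 3′ end overlaps AT4G12840, on the opposite strand, by 149 bases. The sources used here do not state whether counting used the strand, so reads in that stretch could belong to either gene.

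AT5G59250 lies on chromosome 5 at 23903872 to 23907111 on the plus strand, with 14 exons and a protein of 558 residues. It had 273, 232 and 230.1 normalised reads in the epl1ab-labelled libraries, against 4953, 5215 and 5078 in Col-0. Its replicates lay closer together than those of XDH2 and AT4G12830 in both groups. The means were 245 ± 23.9 in epl1ab-labelled and 5082 ± 131 in Col-0 libraries (SD, n = 3 each), with 4.82% of the Col-0 level left, a 20.7-fold lower level. The edgeR log2 fold change was -4.37 ± 0.10 (SE), the same as in the authors' deposited table. On 315, 241 and 275 reads, the level left was 5.37% (95% exact binomial interval 4.79 to 6.0) in replicate 1, 4.57% (4.01 to 5.20) in replicate 2 and 4.53% (4.01 to 5.11) in replicate 3.

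**Figure D1:**
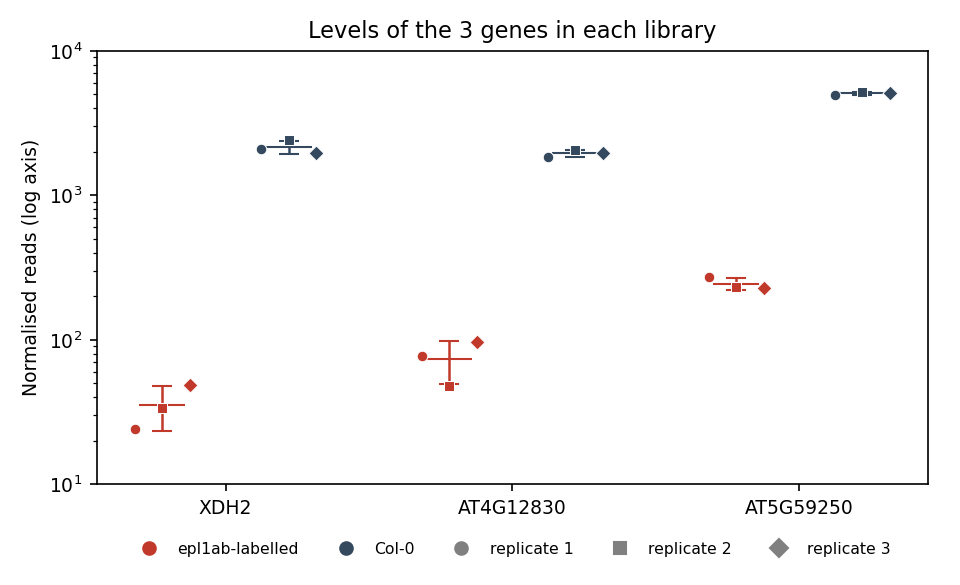
Normalised reads (log axis) of XDH2, AT4G12830 and AT5G59250 in the 3 epl1ab-labelled and 3 Col-0 libraries, with 1 point per library and the mean and SD as bars. The epl1ab-labelled libraries sit between 24.2 and 273 and the Col-0 libraries between 1851 and 5215.

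The level left depended on the scaling between libraries: it ranged between 0.747 and 2.63% for XDH2, 1.76 and 6.13% for AT4G12830, and 2.25 and 7.82% for AT5G59250 when DESeq2 size factors or plain sums of the listed genes replaced the recovered factors. Every epl1ab-labelled library held reads counted to each of the 3 genes, though for XDH2 reads of its near-identical copy XDH1, described below, cannot be told apart from its own in the shared stretches. For comparison, 12 of the 1806 genes listed lower had 0 reads in all 3 epl1ab-labelled libraries. Each of those 12 had at most 537 reads summed over the Col-0 libraries. XDH2, AT4G12830 and AT5G59250 had 5943, 5363 and 13970 there, so the 12 genes are not shown to have fallen further. Epl1ab-labelled replicate 1, with the low level of seed transcripts, held 1.12% of the Col-0 mean of XDH2, 3.95% of AT4G12830 and 5.37% of AT5G59250. The genes were chosen as nearly lost in all 3 epl1ab-labelled libraries, so a fall in replicate 1 follows from the choice. Across the epl1ab-labelled libraries XDH2 was higher where the seed sum was higher, whereas AT4G12830 was lowest in replicate 2 and AT5G59250 was highest in replicate 1. The part of seed RNA in these differences was not tested.

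The 3 genes also differed from each other in level and spread. Per kilobase of transcript, AT5G59250 was at 121 ± 11.8 normalised reads in epl1ab-labelled and 2515 ± 64.9 in Col-0 libraries (SD, n = 3 each). AT4G12830 was at 49.7 ± 16.5 in epl1ab-labelled and 1310.3 ± 67.7 in Col-0 libraries on the same scale. XDH2 was at 8.26 ± 2.85 in epl1ab-labelled and 501 ± 55.5 in Col-0 libraries. The order of the levels per kilobase was thus the same in both groups, with no overlap between neighbouring genes, and XDH2 both started lowest and kept the smallest share. The coefficient of variation of XDH2 was 34.5% in epl1ab-labelled and 11.1% in Col-0 libraries. It was 33.1% in epl1ab-labelled and 5.17% in Col-0 libraries for AT4G12830. For AT5G59250 it was 9.76% in epl1ab-labelled and 2.58% in Col-0 libraries.

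XDH2 has a near-identical copy, XDH1, which lies 325 bases away on the same strand and is not in the tables used here. The coding sequences of the pair were identical at 3773 of 4062 aligned bases (92.9%) and the proteins at 1259 of 1353 aligned residues (93.1%). Of the 4248 stretches of 50 bases in the XDH2 transcript, the length of a read, 298 (7.02%) also occur in XDH1, while those of AT4G12830 and AT5G59250 were all unique among annotated transcripts. The sources used here do not state how reads matching both copies were counted, so some XDH2 reads may come from XDH1. The level of XDH1 is not known here, and the 28, 35 and 58 XDH2 reads of the epl1ab-labelled libraries are few enough that shared stretches could account for part or all of them. The most divergent stretch of 60 coding bases with no gap in the alignment is shown because it lets the copies be told apart. Capitals mark the 11 bases that differ. The stretch covers coding positions 1828 to 1887 of XDH2 and 1852 to 1911 of XDH1, counted from the start codon.
XDH2: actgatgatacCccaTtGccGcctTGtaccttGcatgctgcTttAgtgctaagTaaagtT
XDH1: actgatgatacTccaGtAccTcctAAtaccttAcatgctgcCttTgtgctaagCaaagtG

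By the authors' log2 fold change, XDH2, AT4G12830 and AT5G59250 ranked 14, 35 and 40 among the 1806 genes listed lower. Among the 903 of these with a mean level above the median, they ranked 2, 4 and 5. Just inside and beside them were ndhN, part of the NADH dehydrogenase-like complex of plastids, with 0.636% of the Col-0 level left, and COR413IM1, a chloroplast inner membrane protein induced by cold, with 3.22%. Just outside was AT2G44920 with 7.36% left, followed by ndhO, another subunit of that complex, with 7.53%. Of 1051 genes listed lower with at least 1000 normalised reads in Col-0, 16 kept under 10% of the Col-0 level and the median kept 36.5%. No gene with a Col-0 level at or above that of AT5G59250 fell more, of 369 listed lower. These ranks describe the choice of the genes.

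**Figure D2:**
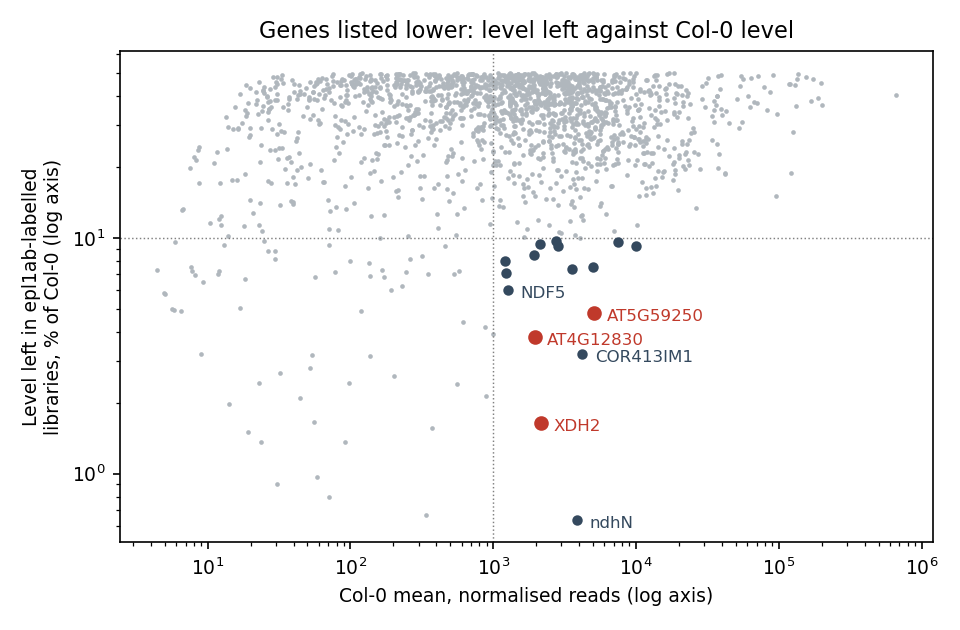
Level left in the epl1ab-labelled libraries, as a percentage of the Col-0 mean (log axis), against the Col-0 mean in normalised reads (log axis), with 1 point per gene listed lower; the 12 genes at 0 cannot be drawn on this axis. Dark points are the other genes with at least 1000 normalised reads in Col-0 and under 10% left. XDH2, AT4G12830 and AT5G59250, in red and chosen for their falls, lie at 1.65%, 3.80% and 4.82%, against a median of 36.5%.

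The pathway of XDH2 was examined through 18 other genes of purine breakdown and salvage. The authors listed 4 of them lower and none higher, and the other 14, XDH1 among them, are not in the tables used here. In all, the authors listed 6.28% of the 27562 annotated protein-coding genes lower and 12.3% higher. These shares count every annotated gene, whether or not it was read in seedlings, and the share among expressed genes is not known here. Among the genes in the tables, edgeR called 1761 of 4773 lower (36.9%) and 3012 higher (63.1%), so a call by itself does not set a listed gene apart. The share listed lower was 22.2% of the list, and no test was made of it. Of the 4 genes, ALN and UGLYAH encode enzymes of later steps and UPS2 a transporter. The other, URE, encodes a urease, whose place in this pathway was not examined. By the authors' deposited tables, their median log2 fold change was -1.28, against -5.92 for XDH2. XDH2 was chosen for its fall, so this contrast follows from the choice and does not set it apart from its pathway.

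ALN, the allantoinase that opens the allantoin ring, averaged 251 ± 27.4 normalised reads in epl1ab-labelled and 657 ± 74.7 in Col-0 libraries (SD, n = 3 each), with an edgeR log2 fold change of -1.39 ± 0.14 (SE, adjusted p = 4.31e-05). URE, the urease that releases ammonia from urea, had 285, 358 and 352 normalised reads in epl1ab-labelled libraries, against 969, 997 and 946 in Col-0, a log2 change of -1.55 ± 0.12 (SE; edgeR, adjusted p = 1.22e-05). UGLYAH, which turns ureidoglycine into ureidoglycolate, averaged 1344 ± 58.1 normalised reads in epl1ab-labelled and 2795 ± 23.1 in Col-0 libraries, a log2 change of -1.06 ± 0.06 (SE; edgeR, adjusted p = 4.81e-06). UPS2, a ureide permease, averaged 245 ± 15.3 normalised reads in epl1ab-labelled and 550.3 ± 51.4 in Col-0 libraries, a log2 change of -1.17 ± 0.12 (SE; edgeR, adjusted p = 5.48e-05). Each of these genes kept between 34.2 and 48.1% of its Col-0 level.

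Of 14 genes for the molybdenum cofactor and the enzymes that carry it, none was listed lower and 1 (7.14%) higher, shares that in lists this short lie near those of all protein-coding genes. The gene listed was the aldehyde oxidase gene AAO4, also a protein relative of XDH2, with 280 reads in the epl1ab-labelled and 11 in the Col-0 libraries. The ratio of its scaled reads was 20.7 (95% exact interval 11.4 to 41.9), and its edgeR log2 fold change was 4.33 ± 0.59 (SE, adjusted p = 0.000233). Of 15 purine synthesis genes, 2 (13.3%) were listed higher and none lower, again near the shares of all protein-coding genes. IMPDH1, which starts the branch to guanine nucleotides, averaged 1167 ± 73.4 normalised reads in epl1ab-labelled and 465 ± 24.1 in Col-0 libraries. Its edgeR log2 fold change was 1.33 ± 0.09 (SE, adjusted p = 8.93e-06), but 0.23 (edgeR adjusted p = 0.200) with DESeq2 size factors of the listed genes as the scaling. ASE3, from the first step of purine synthesis, had 23 reads in the epl1ab-labelled and 1 in the Col-0 libraries, a ratio of 18.7 (3.03 to 769), and did not pass the edgeR filter on low counts.

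AT5G59250 was set beside 17 other transporters of the plastid envelope, of which 3 were listed lower (17.6%) and none higher. Of all protein-coding genes, 6.28% were listed lower and 12.3% higher, and no more is read from a list this short. PLGG1, which exchanges glycolate and glycerate in photorespiration, had 2562, 1685 and 1460 normalised reads in the epl1ab-labelled libraries, against 10655, 11677 and 10751 in Col-0. Its edgeR log2 fold change was -2.54 ± 0.21 (SE, adjusted p = 1.77e-05). MEX1, which exports maltose from starch breakdown, averaged 495 ± 18.7 normalised reads in epl1ab-labelled and 1309 ± 22.1 in Col-0 libraries, a log2 change of -1.40 ± 0.08 (SE; edgeR, adjusted p = 3.87e-06). BASS2, which imports pyruvate, averaged 5629 ± 421 normalised reads in epl1ab-labelled and 13704 ± 201 in Col-0 libraries, a log2 change of -1.28 ± 0.08 (SE; edgeR, adjusted p = 5.04e-06). The other 14 transporters are not in the tables used here. The median of the 3 in the authors' deposited tables was -1.40, against -4.37 for AT5G59250, a contrast that again follows from its choice.

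Among 7 sugar carriers of the tonoplast and vacuole type, only TMT3 (14.3%) was in the tables, and it was lower. With 7 genes, this share is not set apart from the 6.28% of all protein-coding genes listed lower. It averaged 9.97 ± 1.57 normalised reads in epl1ab-labelled and 27.8 ± 4.53 in Col-0 libraries, a log2 change of -1.47 ± 0.26 (SE; edgeR, adjusted p = 0.000945), on 34 reads in the epl1ab-labelled and 77 in the Col-0 group. The closest protein relatives of AT5G59250, AT5G17010 with 62.6% identity and the vacuolar glucose transporter VGT1 with 60.9%, are not in the tables used here, nor are its 3 next relatives.

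AT4G12830 was set beside 9 other plastid and related alpha/beta hydrolases, of which 2 were listed and called lower (22.2%), 2 higher (22.2%) and 5 are not in the tables. Among all protein-coding genes 6.28% were listed lower and 12.3% higher, and with 9 genes no more is read from these shares. The members called lower are also its protein relatives. AT1G52510, with 35.0% identity over 266 residues, had 610, 485 and 479 normalised reads in the epl1ab-labelled libraries, against 4056, 4466 and 4092 in Col-0. Its edgeR log2 fold change was -3.00 ± 0.12 (SE, adjusted p = 1.03e-06), with 12.5% of the Col-0 level left. CLD1 (AT5G38520), a chlorophyll dephytylase with 36.2% identity over 116 residues, averaged 1511 ± 151 normalised reads in epl1ab-labelled and 5201 ± 96.3 in Col-0 libraries, a log2 change of -1.78 ± 0.09 (SE; edgeR, adjusted p = 2.13e-06). AT5G19850, with 22.2% identity, is not in the tables.

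CLH2, a chlorophyllase, went the other way, with 829, 689 and 661 normalised reads in the epl1ab-labelled libraries, against 78.0, 89.2 and 70.8 in Col-0. Its edgeR log2 fold change was 3.19 ± 0.15 (SE, adjusted p = 2.13e-06). PLIP1, a plastid lipase, averaged 209 ± 10.4 normalised reads in epl1ab-labelled and 96.8 ± 13.2 in Col-0 libraries, a log2 change of 1.11 ± 0.15 (SE; edgeR, adjusted p = 0.000219) that turned to -0.00 (edgeR adjusted p = 0.995) with DESeq2 size factors. Over the 13 relatives of all 3 genes, 2 were called lower (15.4%), 1 higher (7.69%) and 10 are not in the tables. The shares of all protein-coding genes were 6.28% listed lower and 12.3% higher, and 13 genes are too few to read more.

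**Figure D3:**
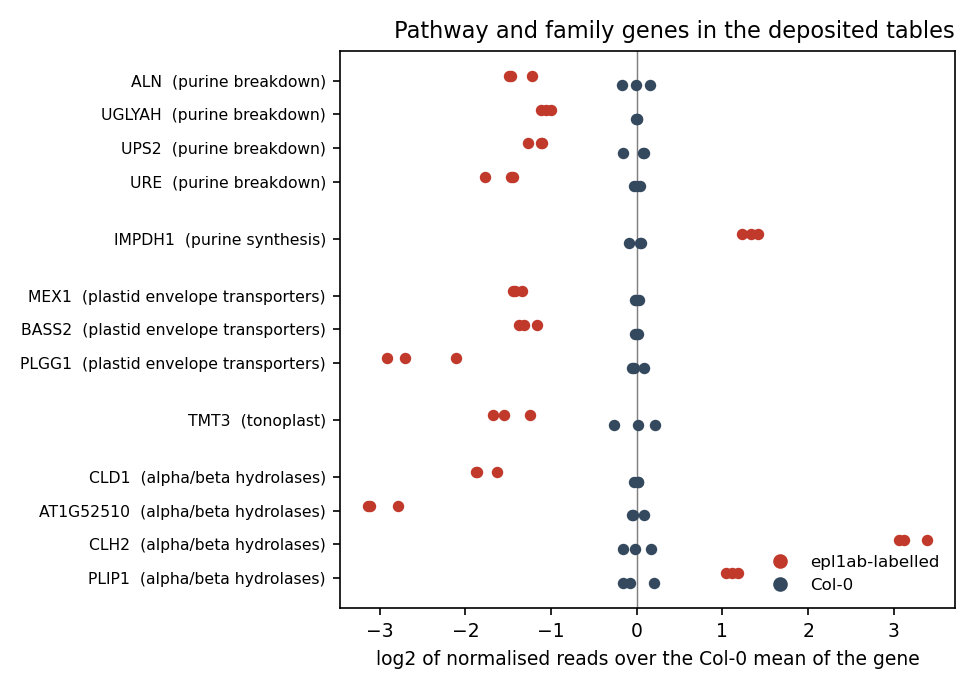
Normalised reads of each library over the Col-0 mean of the gene (log2), with 1 point per library. Shown are genes of the lists on purine metabolism, transporters and hydrolases that are in the tables. AAO4 and ASE3, both listed higher, had 0 reads in a Col-0 library and cannot be drawn on this axis. The 10 genes to the left of 0 kept between 12.5 and 48.1% of the Col-0 level. XDH2, AT4G12830 and AT5G59250 kept less, which follows from their choice by the size of the fall. IMPDH1, CLH2 and PLIP1 lie to the right under the scaling used.

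The chromosomal surroundings were examined through the 5 annotated protein-coding genes on each side of each gene. Of these 30 neighbours, 2 were called lower (6.67%), 2 higher (6.67%) and 26 are not in the tables used here. The share lower is near the 6.28% of all protein-coding genes listed lower, and 12.3% of all were listed higher. None of the 6 directly adjacent genes is in the tables. Among them are AT4G34910, which starts 69 bases from XDH2 on the opposite strand, and AT5G59240, which starts 104 bases from AT5G59250 on the opposite strand. The stretches printed above are the whole of the sequence between these divergent pairs.

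PSAL, a subunit of photosystem I that lies 8379 bases from AT4G12830, averaged 53142 ± 5417 normalised reads in epl1ab-labelled and 118686 ± 6516 in Col-0 libraries, a log2 change of -1.16 ± 0.11 (SE; edgeR, adjusted p = 3.49e-05). OTP80, a pentatricopeptide repeat protein gene that lies 13440 bases from AT5G59250, averaged 33.2 ± 4.27 normalised reads in epl1ab-labelled and 75.5 ± 12.3 in Col-0 libraries. Its log2 change was -1.19 ± 0.21 (SE; edgeR, adjusted p = 0.000873), and it lost its call when libraries were scaled by the plain sum of reads (-0.50, edgeR adjusted p = 0.0581). On the XDH2 side, ARO1, an armadillo repeat protein gene, had 68 reads in the epl1ab-labelled and 7 in the Col-0 libraries, a log2 change of 2.93 ± 0.38 (SE; edgeR, adjusted p = 0.000186). AT4G34930 averaged 106 ± 11.8 normalised reads in epl1ab-labelled and 49.2 ± 3.74 in Col-0 libraries, a log2 change of 1.11 ± 0.17 (SE; edgeR, adjusted p = 0.000432) that was 0.01 (edgeR adjusted p = 0.964) with DESeq2 size factors.

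**Figure D4:**
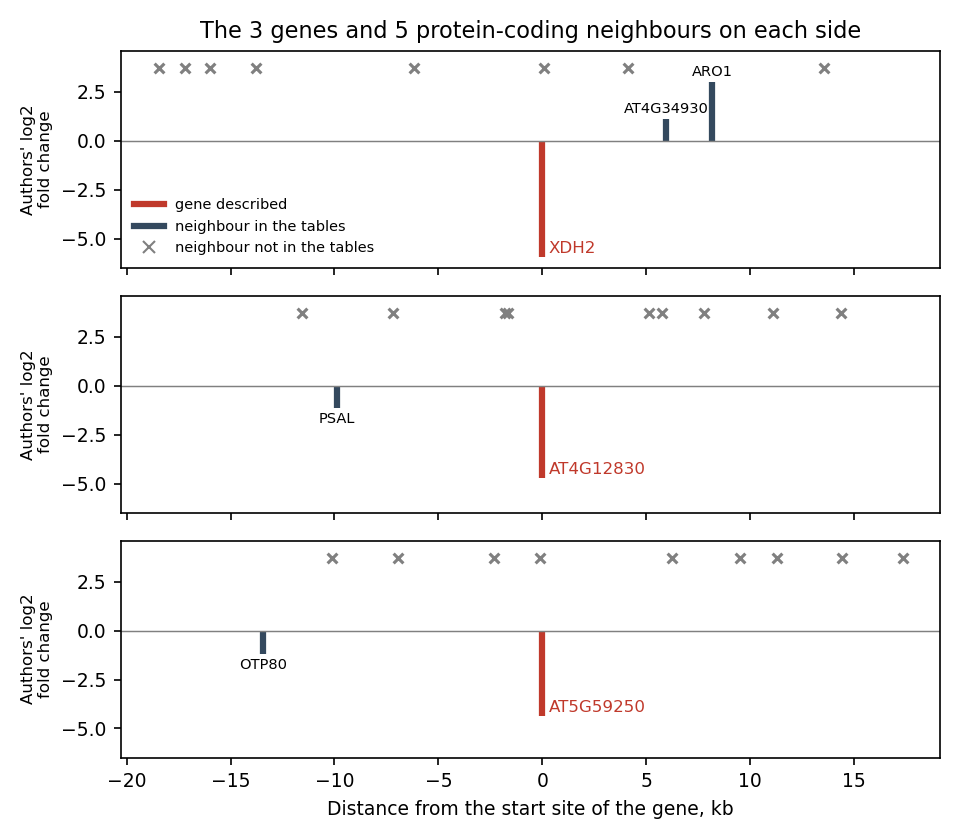
Log2 fold change by the authors' deposited tables, epl1ab-labelled over Col-0, of XDH2, AT4G12830, AT5G59250 and their 30 protein-coding neighbours, against the distance of each start site in kb along the chromosome. Crosses mark the 26 neighbours not in the tables, placed at a fixed height with no value. The 2 neighbours listed lower lie at -1.16 and -1.19. The 3 genes, chosen for their falls, lie at -5.92, -4.71 and -4.37.

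Within 60 kb of the 3 genes, measured between the lower coordinates, lie 106 other protein-coding genes, of which 7 were listed lower (6.60%) and 13 higher (12.3%), near the 6.28% lower and 12.3% higher of all protein-coding genes. They were 3 lower and 4 higher of 34 around XDH2, 2 lower and 2 higher of 34 around AT4G12830, and 2 lower and 7 higher of 38 around AT5G59250. The largest fall around XDH2 was that of AT4G34830, -1.79 on the log2 scale in the authors' deposited tables, and that around AT5G59250 was -1.26 (AT5G59330). Around AT4G12830 it was AT4G12917, an annotated RNA of another class that lies 32.0 kb away, with 8 reads in the epl1ab-labelled libraries and 922 in Col-0 and, by the authors' deposited table, a log2 fold change of -7.16. AT4G12917 and the other 2 were named after their values were seen.

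Genes most alike in pattern were ranked by the root mean square difference of log2(normalised reads + 1) over the 6 libraries, each gene centred on its own mean, among 2664 candidates. Candidates were the genes with a Col-0 mean at or above the median of the listed genes. With 3 libraries per group, this measure mostly reflects the size of the difference between the groups. For XDH2 the closest was PQL3, a PsbQ-like protein linked to the plastid NADH dehydrogenase-like complex, at 0.432 log2 units. AT1G78750 followed at 0.532, COR413IM1 at 0.584, AT5G19500 at 0.663 and AT4G12830 at 0.676. AT1G78750 had only 0.866, 2.89 and 3.35 normalised reads in the epl1ab-labelled libraries, so the added 1 weighs on its distance.

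AT4G12830 and AT5G59250 were closer to each other, at 0.350, than either was to XDH2, which lay 0.859 from AT5G59250. The gene closest to AT4G12830 was AT5G19500 at 0.170, with 34.6, 31.8 and 50.2 normalised reads in the epl1ab-labelled libraries, against 904, 1082 and 989 in Col-0. The pentatricopeptide repeat protein gene PCMP-H61 (AT5G66520) was the closest to AT5G59250 at 0.106, with 32.0, 22.2 and 26.8 normalised reads in the epl1ab-labelled libraries, against 599, 637 and 608 in Col-0. NDF5, required for the plastid NADH dehydrogenase-like complex, was next at 0.193, and AT5G40060 was at 0.260 from AT5G59250 and 0.275 from AT4G12830. AT3G09160, at 0.401 from AT4G12830, and AT5G20935, at 0.303 from AT5G59250, completed the sets.

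**Figure D5:**
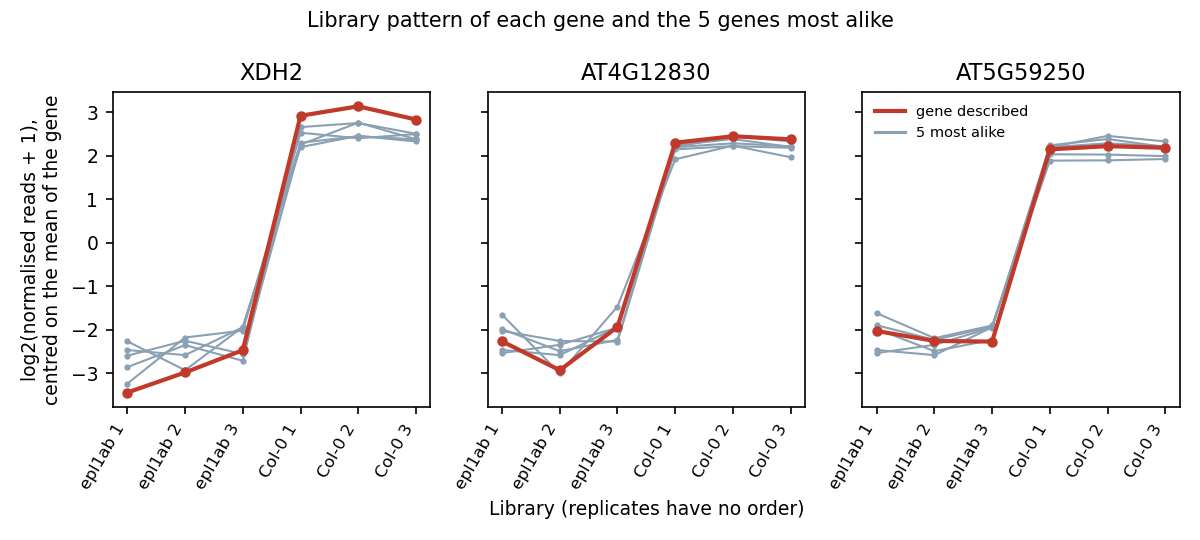
Log2(normalised reads + 1) centred on the mean of each gene, in the 3 epl1ab-labelled and 3 Col-0 libraries, for XDH2, AT4G12830 and AT5G59250 (red) and the 5 genes most alike in pattern (grey-blue); lines join the libraries of 1 gene and carry no order. The grey-blue lines lie nearest to AT5G59250, where the differences were 0.106 to 0.303, and farthest from XDH2, where they were 0.432 to 0.676.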

How the data were processed

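Per the labels' protocols, ribosomal RNA was depleted from total RNA, stranded libraries were made, and each was sequenced to at least 40 M single-end reads, 50 bases long. The submitters' processing notes list TAIR10 as a build and DESeq2 as a tool, without its version. The sources used here name no aligner or read counter. The authors deposited 2 tables, which hold, per the file headers, raw read counts per gene and library, a p-value, its false discovery rate and the log2 fold change. Tested on the values, every listed gene changed by at least 1 on the log2 scale, with a false discovery rate under 0.05. Genes outside the tables are not analysed here.

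The authors' scaling was recovered by least squares from their log2 fold changes over 1774 genes with at least 200 reads (median absolute residual 0.00029). The factors were 1.16, 1.04 and 1.20 for epl1ab-labelled and 1.0, 0.931 and 0.820 for Col-0 replicates 1 to 3. The test on these counts was the quasi-likelihood test of edgeR 4.0.16 (R 4.3.3 and limma 3.58.1), with the factors as library sizes and Benjamini-Hochberg adjustment at 0.05 over 4773 genes. Another 557 genes failed the expression filter. Every tested gene was called, and the authors had picked these genes with the same libraries, so the adjusted p is no measure of false calls among all expressed genes. DESeq2 1.42.0 was an alternative. The edgeR step was also run on simulated counts in which most genes did not change, unlike the tables. That run does not check the fit for falls as large as those of the 3 genes.

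The 3 genes and the lists were chosen with earlier results of these data known. The text names listed members of the lists, 5 neighbours on each side, the 5 best blastp 2.17.0 hits with an e-value under 1e-10, the 5 genes most alike, and the largest falls above the median level. Coordinates of the 3 genes are the same in the tables and in TAIR10.1. In the tables, 14 rows were reassigned by position. Python 3.11.15, numpy 2.4.6, pandas 2.3.3, scipy 1.17.1 and Biopython 1.88 were used.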

Additional observations from a re-analysis of the deposited data

How the results depend on the processing

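The tables hold selected genes, so the scaling between libraries could not be checked on unchanged genes, and the levels of the 3 genes rest on the recovered factors. TMM factors, DESeq2 size factors and plain sums of the listed genes moved the median log2 fold change by -0.47, -1.11 and 0.69. Of 285 values recomputed under alternatives, 262 stayed within the spread or count limit and 23 moved. A change of sign was looked for only in the log2 fold changes of the 3 genes, and 0 reversed. PLIP1, outside these values, turned from 1.11 to -0.00 with DESeq2 size factors. The log2 fold change of XDH2 was -7.05 with DESeq2 size factors and -5.24 with plain sums, with 0.747% and 2.63% of the Col-0 level left. That of AT4G12830 was -5.82 and -4.02, with 1.76% and 6.13% left. That of AT5G59250 was -4.84 with TMM, -5.47 with DESeq2 size factors and -3.68 with plain sums, with 3.50%, 2.25% and 7.82% left. With epl1ab-labelled replicates 2 and 3 left out, an alternative chosen after seeing the data, XDH2 was at -6.47 and AT5G59250 at -4.22 (5.37% left); the lone library is assumed to vary like the Col-0 group. Leaving out each library in turn gave -6.22 to -5.69 for XDH2 (1.35 to 1.91% left), -4.95 to -4.48 for AT4G12830 (3.21 to 4.46%) and -4.46 to -4.33 for AT5G59250 (4.55 to 4.97%). DESeq2 with its own size factors called 1585 genes higher and 1806 lower, where edgeR called 3012 higher and 1761 lower, and 0 purine synthesis genes, 1 hydrolase and 1 neighbour higher. DESeq2 with the recovered factors, and edgeR without a filter, called 2 purine synthesis genes higher. Deviations of same-numbered libraries correlated at -0.39, -0.04 and -0.32 over 3747 genes, and those of other pairs at -0.32 to 0.38. Deviations from the mean of 3 libraries depend on each other, so these values cannot tell whether the libraries were paired. With the replicate number as a block, XDH2 was at -5.94, AT4G12830 at -4.75 and AT5G59250 at -4.38, and 1758 genes were called lower and 2992 higher. The residue of XDH2 rests on 121 reads in all, which gives 1.65% left with a 95% exact interval of 1.37 to 1.98%, narrower than the range over scalings above.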
